A study of Homo sapiens with 6 samples.

Results

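The BCL2 family controls whether the outer membrane of the mitochondria is opened in a cell under stress, and its transcripts and that of survivin were followed here in glioblastoma cells that were made to express LMO2. The set holds 10 genes of the 27259 in the tables, 4 anti-apoptotic (BCL2, BCL2L1, MCL1 and BIRC5, which encodes survivin) and 6 pro-apoptotic (BAX, BAK1, BID, BAD, BCL2L11 and PMAIP1). The genes were given by name and were found through the symbol of each Entrez gene ID in the tables. The rule names them and uses no measured value, although earlier results of these data were known when the set was proposed. RNA came from U87MG, an established human glioblastoma line, infected for 24 h with lentivirus. In U87MG-control (n = 3 libraries) the virus was a control, and in U87MG-LMO2 (n = 3 libraries) it carried LMO2. Both groups therefore carry a lentivirus, all libraries come from 1 cell line, and the study's lentiviral plasmids for LMO2 use a CMV promoter. The labels do not say that the replicates were separate cultures, so the p-values measure only the spread between these libraries, which may be technical.

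The control libraries held 11428432 to 13537284 expected counts (read numbers per gene that were estimated and need not be whole), and every U87MG-LMO2 library was deeper, at 14630627 to 17892955. LMO2 (4005), a LIM-domain adaptor protein, was the check of the labels. It had 5 to 11 counts in the control libraries and 5459, 4503 and 14570 in U87MG-LMO2 replicates 1 to 3, so replicate 3 held the most. Of 9 glioma markers, 5 (VIM, CD44, TNC, CHI3L1 and NES) had a mean of at least 1 FPKM, whereas GFAP, SOX2, OLIG2 and S100B did not. Of 16 measured markers of immune, endothelial, neuronal and epithelial cells, only CD68, SNAP25 and KRT8 had such a mean. CD68 was not near the floor, at 222 FPKM, above CHI3L1 (91.7 FPKM), and SNAP25 (13.8 FPKM) was above NES (7.70 FPKM). CDH5, CD3E and GRIN1 were below 0.1 FPKM in every library.

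The family works by binding. BAX and BAK1 are the effectors that open pores in the outer mitochondrial membrane, BCL2, BCL2L1 (BCL-XL) and MCL1 hold them in check, and BH3-only proteins such as BID, BAD, BCL2L11 (BIM) and PMAIP1 (NOXA) either activate the effectors or occupy their guardians. NOXA binds MCL1 above all, BAD binds BCL2 and BCL-XL, and BIM binds all of the guardians. Survivin belongs to the inhibitor of apoptosis proteins and is also a subunit of the chromosomal passenger complex, and its transcript is high in dividing cells. BCL2L1, MCL1 and BIRC5 are well-known targets of STAT3, the transcription factor whose activation by LMO2 the study examined.

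Levels between genes were compared per length, in FPKM (fragments scaled to transcript length and to mapped reads). BAX had the most transcript, with 121 to 155 FPKM over the 6 libraries, and BCL2L1 came next, with 76.4 to 88.8 FPKM. The ranges of these genes and of BAD (37.1 to 44.3 FPKM) did not overlap. BAD was followed by BIRC5 (24.0 to 42.2 FPKM) and MCL1 (18.8 to 31.9 FPKM), whose ranges overlapped with that of the gene before them. BID had 7.58 to 11.7 FPKM and BAK1 had 6.50 to 8.89 FPKM, and BID was the higher of the pair in 4 of 6 libraries. BCL2L11, BCL2 and PMAIP1 had the least, with all values between 0.82 and 2.68 FPKM. Among the guardians BCL2L1 was thus the most abundant, at 2.60 to 4.64 times the FPKM of MCL1 within a library.

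All 10 genes passed the filter on low counts and were tested between U87MG-LMO2 and U87MG-control with edgeR's quasi-likelihood test. PMAIP1 was lower in U87MG-LMO2, and the other 9 genes did not pass an adjusted p of 0.05. The count of 0 genes higher and 1 lower of 10 stands beside 4.72% higher and 2.75% lower of all 16092 genes tested, or 7.48% in either direction. At an unadjusted p under 0.05, 3 of the 10 genes (PMAIP1, MCL1 and BAK1) would pass, against 25.7% of all genes tested. Of these 3, only BAK1 was higher in U87MG-LMO2. DESeq2 also called 0 higher and 1 lower. Normalised read counts (CPM, counts scaled to the same library total with TMM factors) did not overlap between the groups for 5 of the 10, of which BAK1 and BAD were above the controls and PMAIP1, MCL1 and BCL2 below. Of all genes tested, 34.1% did not overlap, 17.5% above the controls and 16.6% below.

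**Figure D1:**
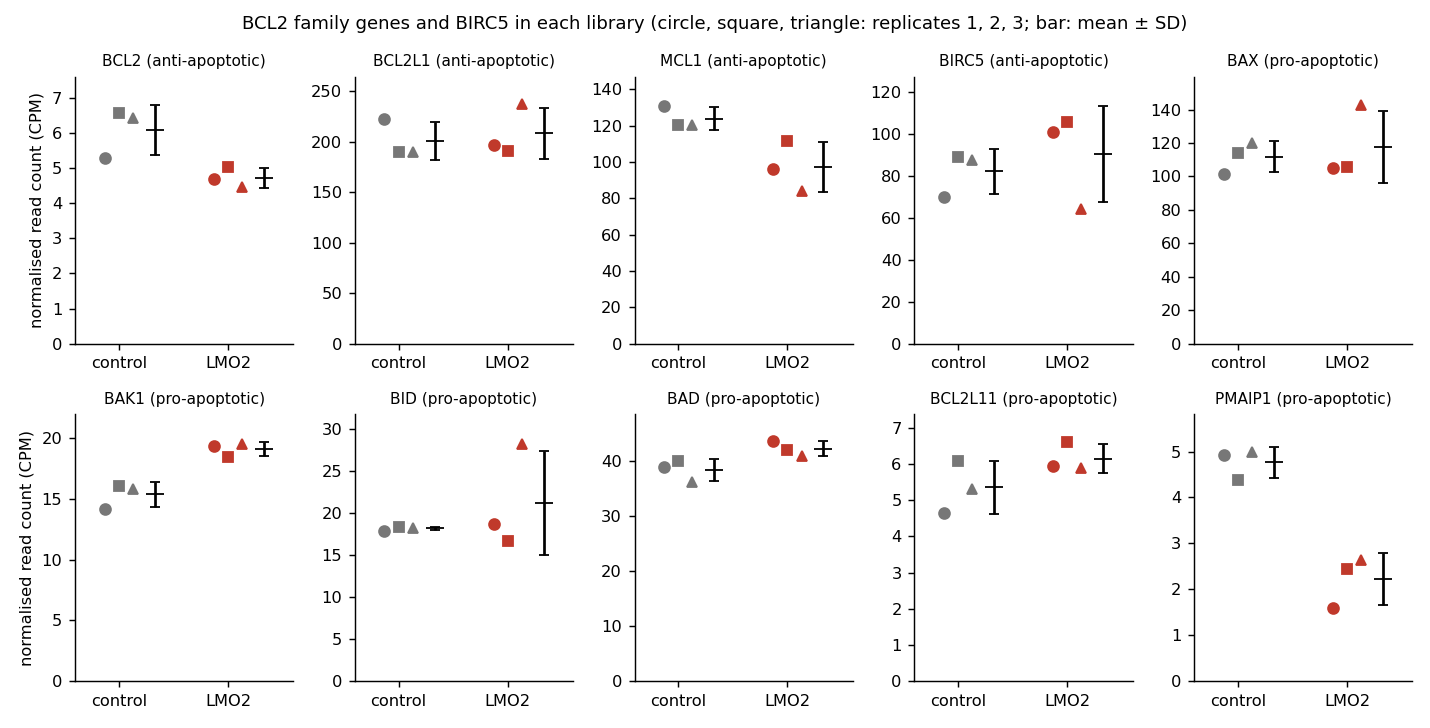
Normalised read count (CPM, y axis from 0) of each of the 10 genes in the 3 U87MG-control libraries (grey) and the 3 U87MG-LMO2 libraries (red); symbols mark replicates 1 to 3 and the bar gives the mean ± SD. PMAIP1 lay between 4.37 and 4.99 CPM in the controls and between 1.58 and 2.65 CPM with LMO2, whereas BCL2L1, BIRC5, BAX, BID and BCL2L11 overlapped between the groups.

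PMAIP1 (5366), which encodes the MCL1-binding protein NOXA, had 57, 60 and 66 counts in U87MG-control replicates 1 to 3 and 26, 36 and 44 in U87MG-LMO2 replicates 1 to 3. Every U87MG-LMO2 library was below every control although each was deeper. After scaling, the values were 4.94, 4.37 and 4.99 CPM in the controls and 1.58, 2.45 and 2.65 CPM with LMO2. The mean fell from 4.77 ± 0.340 to 2.23 ± 0.566 CPM (SD, n = 3), or 2.14-fold. On the log2 scale the change was -1.10 (SE 0.23, 95% interval -1.63 to -0.56, edgeR adjusted p 0.0303). Only 0.907% of all genes tested had a lower log2 fold change. The library with the most LMO2, replicate 3, did not hold the least PMAIP1.

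The size of the PMAIP1 difference was steadier than its call. Over the 15 alternatives the log2 fold change stayed between -1.25 and -0.72, and the smallest came from limma on log2(FPKM + 1), where the added 1 shrinks changes at low levels. The call was kept in 10 of them. It was lost without U87MG-control replicate 1 (edgeR adjusted p 0.110), replicate 2 (0.0954) or replicate 3 (0.120), without U87MG-LMO2 replicate 1 (0.0932, where the log2 fold change was -0.89) and with the replicate number as a block (0.0580). It was kept without U87MG-LMO2 replicate 2 (0.0486) and replicate 3 (0.0104).

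**Figure D2:**
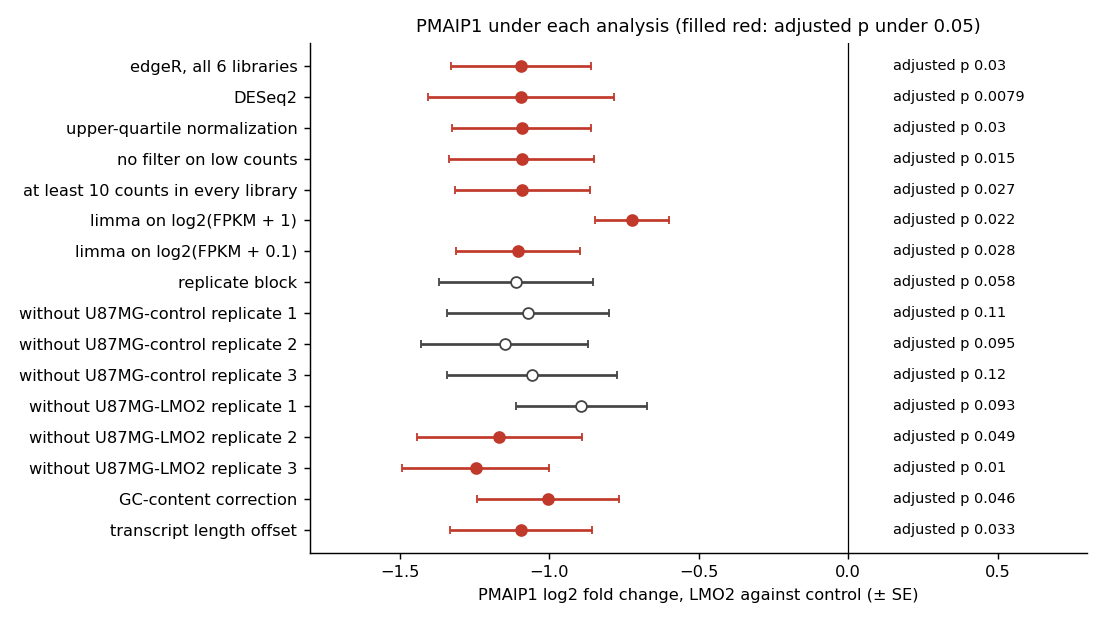
Log2 fold change of PMAIP1 (x axis, U87MG-LMO2 against U87MG-control, ± SE) under edgeR with all 6 libraries and under each of the 15 alternatives, with the adjusted p of each written beside it; filled red points passed an adjusted p of 0.05. All points lie between -1.25 and -0.72, and 5 of the alternatives are open.

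The PMAIP1 gene lies at chr18:59899948-59904306 on the plus strand (GRCh38, GENCODE v29). The 250 bases before its RefSeq start site (GRCh38.p14, chr18:59899746-59899995, plus strand) are shown because PMAIP1 is the gene of the set whose transcript changed, with matches to the GC box (GGGCGG, either strand) in capitals.
PMAIP1: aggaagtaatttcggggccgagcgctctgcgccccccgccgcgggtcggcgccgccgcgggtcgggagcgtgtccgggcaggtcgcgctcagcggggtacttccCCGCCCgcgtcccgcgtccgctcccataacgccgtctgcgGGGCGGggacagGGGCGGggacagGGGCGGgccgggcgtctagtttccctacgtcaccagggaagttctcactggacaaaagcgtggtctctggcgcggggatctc
The window held 4 GC boxes, and 42.6% of the 35097 RefSeq windows of this length held at least 1. It held no match to the STAT element TTCNNNGAA, which 6.57% of all windows held, nor to the cAMP response element TGACGTCA (1.65%), the E-box CANNTG (61.8%) or GATAA (20.5%), all read on both strands. Windows were found for 8 of the 10 genes, not for MCL1 or BIRC5. None of the 14 windows of these 8 genes held TTCNNNGAA or TGACGTCA, and BAX held the most E-boxes, 5, of which 4 read CACGTG. A match is only a run of letters, and only exact matches were sought. The absence of one says nothing of near matches in a window or of factors that bind elsewhere.

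The other 3 BH3-only genes of the set did not pass the test, and each had a positive log2 fold change. BCL2L11 (10018), whose product BIM activates BAX and BAK1, had 4.65, 6.10 and 5.32 CPM in the controls and 5.93, 6.60 and 5.89 CPM with LMO2. The groups overlapped, and the log2 fold change was 0.19 (SE 0.17, 95% interval -0.20 to 0.58, edgeR adjusted p 0.522). BID (637), which links death receptors to mitochondria, had 17.9 to 18.3 CPM in the controls and 18.7, 16.7 and 28.2 CPM with LMO2. Its U87MG-LMO2 replicate 3 thus stood above all other libraries, while replicates 1 and 2 lay close to the controls. The log2 fold change of BID was 0.22 (SE 0.19, 95% interval -0.22 to 0.66, edgeR adjusted p 0.503), and it was -0.038 without that library. BAD (572), which is held inactive by survival kinases, had 39.0, 40.0 and 36.2 CPM in the controls and 43.7, 42.1 and 41.0 CPM with LMO2. These groups did not overlap, but the log2 fold change was small, 0.14 (SE 0.10, 95% interval -0.08 to 0.37, edgeR adjusted p 0.407).

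Of the effectors, BAK1 (578) stood above the controls in each U87MG-LMO2 library. It had 14.2, 16.1 and 15.9 CPM in the controls and 19.4, 18.4 and 19.5 CPM with LMO2, with means of 15.4 ± 1.04 and 19.1 ± 0.589 CPM (SD, n = 3). The difference of 0.31 on the log2 scale (SE 0.12, 95% interval 0.04 to 0.58) had an unadjusted p of 0.0273 by edgeR and an adjusted p of 0.140. It was called in 0 of 15 alternatives, whose adjusted p values were 0.117 to 0.413. BAX (581) had 102, 114 and 119.9 CPM in the controls and 105, 105 and 143 CPM with LMO2. The groups overlapped, and U87MG-LMO2 replicate 3 was again the highest. The log2 fold change of BAX was 0.07 (SE 0.14, 95% interval -0.24 to 0.39, edgeR adjusted p 0.773), and its sign turned without that library (-0.088).

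Of the guardians, MCL1 and BCL2 lay below the controls in each U87MG-LMO2 library, and BCL2L1 did not. MCL1 (4170), a short-lived protein that NOXA sends for degradation, had 131, 120.3 and 120.05 CPM in the controls and 95.9, 112 and 84.0 CPM with LMO2. The means were 124 ± 6.23 and 97.1 ± 13.8 CPM (SD, n = 3). The difference of -0.35 on the log2 scale (SE 0.12, 95% interval -0.62 to -0.08) had an unadjusted p of 0.0178 by edgeR and an adjusted p of 0.111. MCL1 was called in 0 of 15 alternatives, with adjusted p values from 0.0554 (without U87MG-LMO2 replicate 2) to 0.271. BCL2 (596), the founding member of the family, had 5.28, 6.56 and 6.42 CPM in the controls and 4.69, 5.04 and 4.45 CPM with LMO2. Its log2 fold change was -0.37 (SE 0.17, 95% interval -0.76 to 0.02, edgeR adjusted p 0.214), on 61 to 90 counts per library. BCL2L1 (598) had 222, 189.9 and 189.9 CPM in the controls and 196, 191 and 237 CPM with LMO2. The groups overlapped. Its log2 fold change was 0.05 (SE 0.12, edgeR adjusted p 0.807), with a 95% interval of -0.22 to 0.33, or 0.860 to 1.25 times the control level.

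GC content of the transcripts moved with these differences. The 3 genes with negative log2 fold changes had the lowest mean GC content of the 10, 45.9% for BCL2, 46.2% for PMAIP1 and 47.9% for MCL1, and the other 7 had 50.2 to 65.0%. With each library's GC trend removed, PMAIP1 remained lower (log2 fold change -1.005, edgeR adjusted p 0.0463). The values of MCL1, BCL2 and BAK1 were then -0.30, -0.28 and 0.16, and those of BAX, BAD and BCL2L1 turned to -0.12, -0.11 and -0.049. Its part in the results was not tested further.

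BIRC5 (332), which encodes survivin, varied more between the U87MG-LMO2 libraries than between the groups. It had 69.9, 88.9 and 87.6 CPM in the controls and 101, 106 and 64.3 CPM with LMO2, so that replicates 1 and 2 were the highest of all libraries and replicate 3 was the lowest. The log2 fold change was 0.14 (SE 0.19, 95% interval -0.29 to 0.57, edgeR adjusted p 0.683), and it was 0.33 without replicate 3 (adjusted p 0.0746). Replicate 3 also had the lowest sum over a list of 20 mitosis genes. The list includes the other subunits of the passenger complex (AURKB, INCENP and CDCA8). Not every gene was lowest there, as PLK1 and CDC20 were lowest in U87MG-control replicate 1. The summed level of the 20 genes was 3334 to 3716 CPM in the controls. It was 3868 and 3855 CPM in U87MG-LMO2 replicates 1 and 2, and 2216 CPM in replicate 3. Replicate 3 also held the most LMO2, 876 CPM against 332 and 306. It departed from its group over genes in general as well. The chi-square per degree of freedom of counts was 40.4 and 54.5 for replicate 3 against replicates 1 and 2. It was 7.58 between replicates 1 and 2, and 2.27 to 10.8 between control libraries. The TMM factor of replicate 3 was 0.929, against 1.008 to 1.021 in the other libraries. What part any of these plays in the BIRC5 value was not tested. All 20 mitosis genes were tested. By edgeR 0 were higher and 0 lower, at an unadjusted p under 0.05 0 were higher and 1 lower, against 25.7% of all genes in either direction, and DESeq2 called 0. Their median log2 fold change was -0.08, beside -0.01 over all genes tested. The most abundant of them, UBE2C, CDC20, PLK1 and FOXM1, had log2 fold changes of -0.13, -0.02, 0.10 and -0.06.

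**Figure D3:**
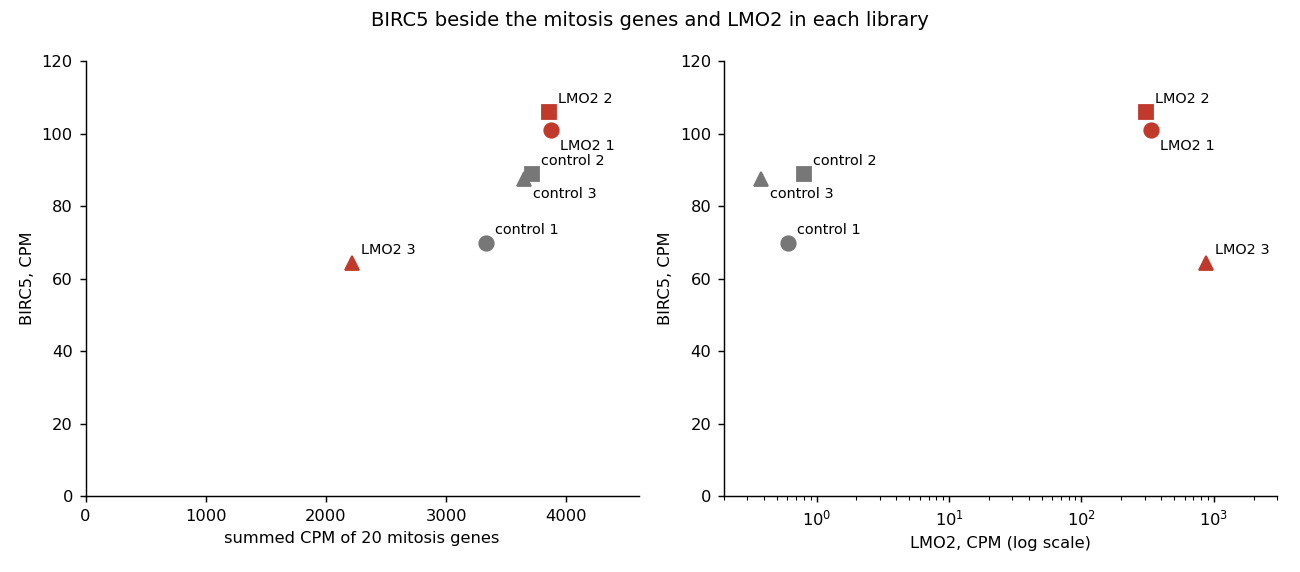
BIRC5 (CPM, y axis) in each library against the summed CPM of 20 mitosis genes (left) and against LMO2 (right, log axis), with U87MG-control in grey and U87MG-LMO2 in red. U87MG-LMO2 replicate 3 lies apart, with 64.3 CPM of BIRC5, 2216 CPM of mitosis genes and 876 CPM of LMO2.

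The anti-apoptotic and pro-apoptotic sides were then set against each other. The median log2 fold change was -0.15 for the 4 anti-apoptotic genes, of which 2 were positive and 2 negative, and 0.16 for the 6 pro-apoptotic genes, of which 5 were positive and PMAIP1 was negative. With each library's GC trend removed the pro-apoptotic median was 0.018, and leaving out U87MG-LMO2 replicate 3 made it 0.062. As summed transcript, the anti-apoptotic genes made up 151, 144 and 144 FPKM in U87MG-control replicates 1 to 3 and 145, 147 and 132 FPKM in U87MG-LMO2 replicates 1 to 3. The pro-apoptotic genes made up 179, 197 and 201 FPKM in the controls and 189.96, 186 and 217 FPKM with LMO2. The ratio of the sums was 0.840, 0.733 and 0.716 in the controls and 0.765, 0.791 and 0.607 with LMO2, and the groups overlapped. Most of these sums came from BCL2L1, which gave 51.9 to 66.3% of the anti-apoptotic FPKM, and BAX, which gave 65.7 to 71.7% of the pro-apoptotic FPKM. Without BIRC5, the anti-apoptotic sum was 122.5, 108.3 and 108.5 FPKM in the controls and 104.6, 105.1 and 107.6 FPKM with LMO2. These sums did not overlap, by a narrow margin, whereas their ratio to the pro-apoptotic sum still overlapped. The sides were also averaged as log2(FPKM + 0.1), where each gene weighs the same and no TMM factor enters. The anti-apoptotic side was 4.307, 4.39 and 4.38 in the controls and 4.19, 4.297 and 4.01 with LMO2. The groups did not overlap, but only by the narrow margin between U87MG-control replicate 1 and U87MG-LMO2 replicate 2. Of single genes tested, 34.1% did not overlap in CPM, and no such share is given here for means of 4 genes in FPKM. The pro-apoptotic side was 3.42, 3.52 and 3.54 in the controls and 3.34, 3.34 and 3.49 with LMO2, which overlapped. Its mean was 3.49 in the controls and 3.39 with LMO2, the opposite direction to the median log2 fold change of 0.16. The data thus give no single direction for the pro-apoptotic side. The difference of the sides, anti minus pro, was 0.883, 0.871 and 0.844 in the controls and 0.846, 0.960 and 0.520 with LMO2, and it overlapped as the ratio of the sums did.

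Pairs of a guardian and its partner gave a more divided picture, described here with no test and no share over other gene pairs. BCL2L1 over BAX overlapped between the groups, with 0.735, 0.566 and 0.539 in the controls and 0.639, 0.615 and 0.561 with LMO2. BCL2L1 over BAK1 also overlapped, with 13.65, 10.35 and 10.60 in the controls and 8.97, 9.09 and 10.62 with LMO2. MCL1 over BAK1 was 4.91, 3.98 and 4.03 in the controls and 2.65, 3.22 and 2.29 with LMO2, so every U87MG-LMO2 library was lower. This follows from MCL1 lying below and BAK1 above the controls in each, as given above. BCL2 over BAX was 0.0149, 0.0167 and 0.0158 in the controls and 0.0107, 0.0129 and 0.0104 with LMO2, likewise lower in each. MCL1 over PMAIP1 went the other way, with 12.5, 13.0 and 11.3 in the controls and 28.7, 21.5 and 15.0 with LMO2, although MCL1 itself was lower. The direction of a ratio therefore depended on which partner was chosen.

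**Figure D4:**
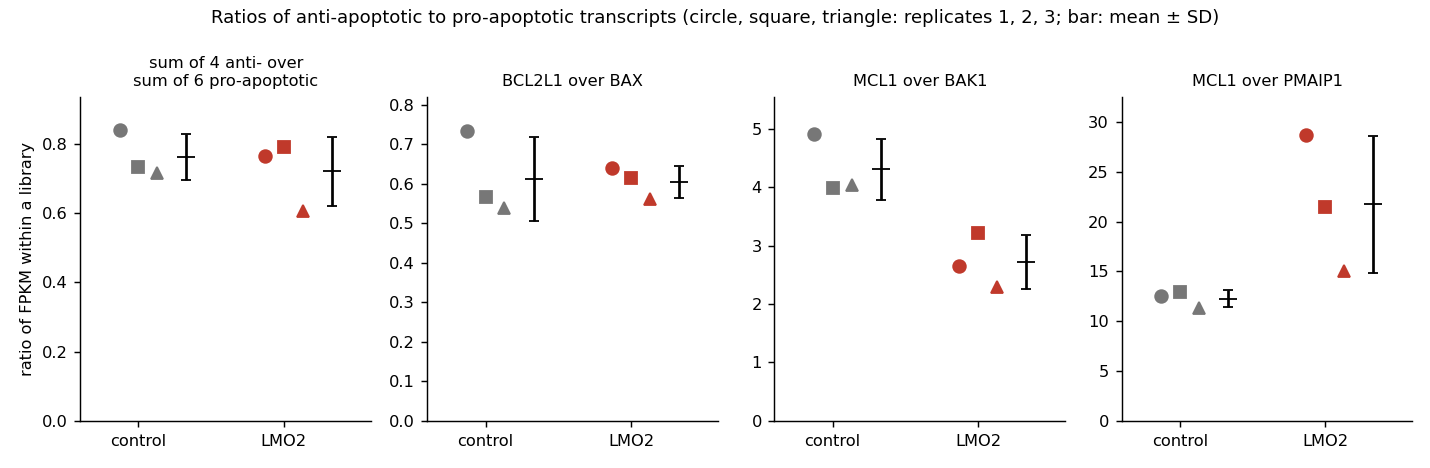
Ratios of anti-apoptotic to pro-apoptotic transcript (FPKM within a library, y axes from 0) in the U87MG-control (grey) and U87MG-LMO2 (red) libraries; symbols mark replicates 1 to 3 and the bar gives the mean ± SD. The summed ratio and BCL2L1 over BAX overlap between the groups, MCL1 over BAK1 is lower in all 3 U87MG-LMO2 libraries, and MCL1 over PMAIP1 is higher in all 3.

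Other genes of the pathway were read from 8 lists written from general knowledge, with 67 of 74 genes tested. Of these, 2 were higher (BMF and BIRC3) and 1 was lower (CASP6), beside 4.72% and 2.75% of all genes tested. DESeq2 called 3 higher and 2 lower. BMF (90427), another BH3-only gene, had 19, 14 and 14 counts in the controls and 79, 57 and 52 with LMO2. It rose 3.19-fold, from 1.24 ± 0.351 to 3.94 ± 0.843 CPM (SD, n = 3). Its log2 fold change was 1.67 (SE 0.28, edgeR adjusted p 0.0143). Its call was kept in 12 of 15 alternatives and lost without U87MG-control replicate 2 (0.0688), U87MG-control replicate 3 (0.0774) or U87MG-LMO2 replicate 1 (0.0613). BMF and PMAIP1, both BH3-only genes, thus changed in opposite directions. BBC3 (PUMA), named after its values were seen, was the only other gene tested in this list, at -0.14 and not called, and BOK, BIK and HRK had too few counts.

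BIRC3 (330), a ubiquitin ligase of the survivin family that acts in TNF and NF-kB signalling, had 0.802 to 1.28 CPM in the controls and 2.11 to 2.92 CPM with LMO2. It rose by 1.14 on the log2 scale (SE 0.28, edgeR adjusted p 0.0446). Its neighbour BIRC2, named after its values were seen, had 18.4, 28.1 and 22.8 CPM in the controls and 60.5, 53.8 and 28.4 CPM with LMO2. Its adjusted p of 0.0537, at a log2 fold change of 1.04, missed the threshold by edgeR, and DESeq2 called it. The other 6 IAP genes and antagonists tested were not called. CASP6 (839), an executioner caspase, had 16.4, 18.6 and 20.1 CPM in the controls and 13.1, 12.3 and 12.9 CPM with LMO2. It fell by 0.52 on the log2 scale (SE 0.13, edgeR adjusted p 0.0448). Of 11 apoptosome, caspase and adaptor genes tested, edgeR called CASP6 alone. BIRC3 kept its call in 6 and CASP6 in 7 of 15 alternatives. Of the fits that left out 1 library, the one without U87MG-LMO2 replicate 3 alone called them (0.0251 and 0.0242), and the others gave adjusted p values up to 0.152 for BIRC3 and 0.193 for CASP6.

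**Figure D5:**
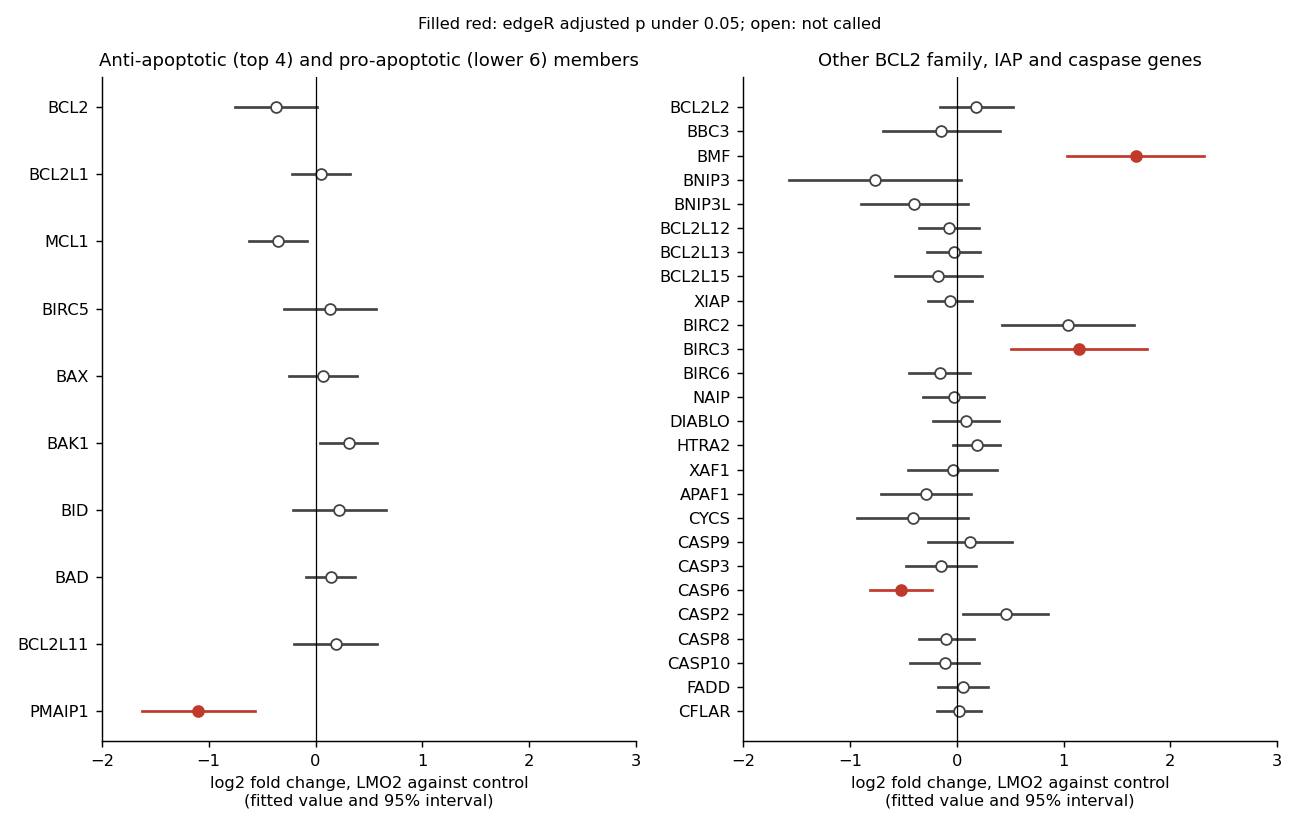
Log2 fold change (x axis, U87MG-LMO2 against U87MG-control) with its 95% interval for the 10 genes of the set (left) and for other BCL2 family, IAP and caspase genes (right); filled red points passed an edgeR adjusted p of 0.05. PMAIP1 (-1.10) is called on the left, and BMF (1.67), BIRC3 (1.14) and CASP6 (-0.52) on the right.

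In the remaining lists edgeR called 0 genes. At an unadjusted p under 0.05 these gave 4 higher and 1 lower of the transcription factors, 0 and 1 of the turnover enzymes, and 0 of the further guardians and relatives, against 25.7% of all genes tested in either direction. DESeq2 called E2F1 alone. Of the further guardians only BCL2L2 (BCL-W) had enough counts, and its log2 fold change was 0.18 (edgeR adjusted p 0.483). The 5 tested relatives were all at negative values, and BNIP3 and BNIP3L, which act in mitophagy under hypoxia, were at -0.76 and -0.40 (adjusted p 0.217 and 0.293). BCL2L12 and BCL2L13 were at -0.07 and -0.03. U87MG-control replicate 1 held 59.6 FPKM of BNIP3 against 18.5 to 23.4 FPKM in the other 5 libraries. The 7 enzymes that turn over MCL1 or NOXA had log2 fold changes from -0.30 to -0.01, with -0.23 for USP9X, a deubiquitinase of MCL1, and -0.01 for HUWE1, one of its ligases. The ubiquitin-conjugating enzymes UBE2J2 and UBE2K were at -0.02 and -0.17. Of 13 transcription factors known to act on the family, E2F1 came nearest, at 0.58 and an adjusted p of 0.0515, and the other abundant ones, ATF4, HIF1A and RELA, were at -0.01, 0.39 and 0.03. STAT3, named for the study's question, was at -0.11 (edgeR adjusted p 0.582). The study followed phosphorylation of the STAT3 protein, which a transcript level does not measure.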

How the data were processed

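RNA of 6 U87MG libraries was sequenced. The submitters' processing notes name Bowtie2, BWA and genome build GRCh38.p12, and their roles are not given in the sources used here. Per gene and library, the authors deposited an expected count (an estimated count that is not normalized), an FPKM value scaled to transcript length and mapped reads, and a mean transcript length. Their comparison table also holds their log2 ratios and probabilities, which were not used. Against its group means, 134 genes disagreed by over 0.001 FPKM, all of them in U87MG-LMO2, where lines of replicate 3 are damaged, and they were left out of all tests. None of the 10 genes was among them.

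Expected counts were rounded and tested with edgeR 4.0.16 in R 4.3.3 (filterByExpr, TMM, glmQLFit, glmQLFTest, 2-sided), with Benjamini-Hochberg adjustment over 16092 genes. SE is the log2 fold change over the square root of F, and 95% intervals use its t distribution. RefSeq gave a symbol for 89.6% of the Entrez gene IDs. The members and lists were chosen with earlier results of these data known. Named were the 10 genes, LMO2, and of each list the called genes or, with none called, up to 4 with the highest FPKM, and exceptions are marked. Some genes are not reported here by name. The alternatives tried were no filter on low counts, upper-quartile scaling, DESeq2 1.42.0, at least 10 counts in every library, limma 3.58.1 on log2(FPKM + 1) and log2(FPKM + 0.1), the replicate block, leaving out each library, and a GC-content correction (lowess span 0.3, GENCODE v29). A transcript length offset was added after seeing the data. The test was also tried on counts simulated from the means of these data and the trend of their dispersions. There edgeR recovered 73% of 2-fold and 100% of 4-fold changes. The 200 changed genes were drawn from all tested genes, and no simulated library was made divergent. The shares therefore do not give the power for the 10 genes or for changes below 2-fold.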

Additional observations from a re-analysis of the deposited data

How the results depend on the processing

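PMAIP1 had 26 to 66 and BCL2 61 to 90 counts per library, so their values carry more counting error than those of the abundant genes, and the 95% intervals given above show how wide a range of differences 3 libraries a group leave for the uncalled genes. The 10 genes gave 0 higher in every alternative run. The 1 lower gene, PMAIP1, was lost with the replicate block (0) and in 4 of 6 fits that left out 1 library (range 0 to 1). The replicate numbers did not pair the libraries, since deviations of same-numbered libraries correlated at -0.117, -0.00342 and -0.0407 over genes. With the block, 387 genes were higher and 189 lower of all tested, and 1 and 0 of the pathway lists, against 760, 443, 2 and 1 without it. DESeq2 called 681 genes lower, and 2 of the pathway lists lower. Without a filter 4 list genes were higher and 0 lower, as after the GC-content correction (4 and 0). limma on either FPKM scale called 1 list gene higher. Leaving out 1 library gave 102 (without U87MG-control replicate 3) to 1307 genes higher, 42 to 1102 lower, 0 to 10 list genes higher and 0 to 3 lower, with the highest of each without U87MG-LMO2 replicate 3.

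The anti-apoptotic median stayed negative in the alternatives run, -0.20 to -0.14 over the fits that left out a library. The pro-apoptotic median stayed positive, at 0.049 and 0.050 with limma on log2(FPKM + 1) and log2(FPKM + 0.1), 0.018 after the GC-content correction and 0.062 to 0.20 over the fits that left out a library, where the lowest came without U87MG-LMO2 replicate 3. The pro-apoptotic mean of log2(FPKM + 0.1) was lower with LMO2, as given above. Signs turned for uncalled genes. BCL2L11 was at -0.015 and -0.020 with limma on log2(FPKM + 1) and log2(FPKM + 0.1). Over the fits that left out 1 library, BCL2L1 ranged from -0.049 to 0.13, BAX from -0.088 to 0.16 and BID from -0.038 to 0.37, with each lowest value without U87MG-LMO2 replicate 3. After the GC-content correction, BCL2L1 was at -0.049, BAX at -0.12 and BAD at -0.11. The cause was not tested for any of these.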

Other observations

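The mean transcript length that the authors' tables give for a gene in a library was the same 1954 bases for PMAIP1 in all 6 libraries and varied by little for 7 of the others. It varied most for BCL2L11 and BCL2. BCL2 ranged from 2534 to 3566 bases, both found in U87MG-LMO2 libraries (replicates 3 and 1), with 2858 to 2940 bases in the controls. BCL2L11 ranged from 2004 bases in U87MG-control replicate 3 to 3045 in U87MG-LMO2 replicate 2. With these lengths as an offset, the log2 fold change of BCL2 was -0.43 and that of BCL2L11 was 0.02, and neither was called.

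HRK, a BH3-only gene of neurons that was named after its values were seen, was left out by the filter on low counts. It had 13, 19 and 9 counts in the control libraries and 5, 6 and 8 in the deeper U87MG-LMO2 libraries. All U87MG-LMO2 libraries were thus below all controls, with 9 and 8 counts at the nearest. Of all genes tested, 16.6% lay wholly below the controls in CPM.

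Over the 6 libraries, the genes of 15216 searched whose log2 CPM followed BIRC5 most closely were SULT1A2, LINC01732 and CENPO (Pearson r 0.996, 0.994 and 0.988), of which CENPO encodes a kinetochore protein. The median r of the 20 mitosis genes with BIRC5 was 0.771. Those closest to PMAIP1 included CBL, a ubiquitin ligase of receptor kinases, and LINC01444 (0.997 and 0.994), and neither was called. These are descriptions over 6 libraries that fall into the groups compared, which differ in depth, and the genes were picked as the highest of many.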
